A study of Mus musculus with 12 samples.

Results

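Lysosomal proteases are the enzymes with which a cell takes apart proteins that it has engulfed or that it recycles through autophagy. This account follows 9 of their genes, Ctsa, Ctsb, Ctsd, Ctsh, Ctsl, Ctss, Ctsz, Lgmn and Scpep1, chosen by name from the 24883 entries of each gene table. All 9 were found and passed the filter on low values. These genes and the gene lists below were chosen with earlier results of these data known. Counts of called genes among them are therefore not independent of the data. The 9 genes were read in MLL-AF9 transgenic acute myeloid leukaemia, in which a fusion of the MLL protein to AF9 drives the disease. GFP+ leukaemia cells were sorted from mouse bone marrow, and 1 RNA-seq library was made per mouse. The relapse group (n = 4 mice) was sampled 10 days after doxorubicin and cytarabine, the iCT group (n = 3) was sampled 3 days after the same induction chemotherapy, and the vehicle group (n = 5) received vehicle. Cells of all 3 groups carried the MLL-AF9 transgene and the GFP marker. For the promoter of the transgene, the origin of the GFP, the strain, age and drug doses, the sources used here give nothing.

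Cathepsins are made as inactive precursors, tagged with mannose 6-phosphate, carried to the acidic lysosome and activated there by cleavage. Cathepsins B, H, L, S and Z are cysteine proteases of the papain family, cathepsin D is an aspartic protease, legumain (Lgmn) cuts after asparagine and also processes other cathepsins, and Ctsa and Scpep1 belong to the serine carboxypeptidases. In myeloid cells these enzymes serve degradation, the trimming of antigens for MHC class II and the activation of endosomal Toll-like receptors, while stefins and cystatins hold cathepsins in check outside the lysosome.

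Values are deposited FPKM, in which fragments are divided by transcript length and library size, so levels of different genes can be compared. Changes are differences of log2(FPKM + 1) fitted by limma over all 11019 tested genes, and a change was called at a Benjamini-Hochberg adjusted p under 0.05 over all of them. The intervals in the tables implied 362268 fragments for iCT mouse 1 and 1226471 to 8362627 for the other 11 libraries, and the median gene rested on 13.9 fragments in iCT mouse 1 and on 43.9 to 292.5 elsewhere. Of 7 leukaemia markers (Hoxa9, Hoxa10, Meis1, Mpo, Kit, Ptprc and Itgam) none was at 0 throughout a group, and their summed level was 2094 to 4009 FPKM in relapse, 2426 to 2882 in iCT and 2131 to 3301 in vehicle mice. Their log2 changes ran from -1.79 to 0.26 in iCT against vehicle, with 1 called lower, where 9.62% of all tested genes were called. In relapse against iCT they ran from -0.14 to 2.06, with 1 called higher, where 9.72% of all tested genes were called.

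Ctsz and Ctsd made up most of the summed level of the 9 genes in every group. Ctsz, a carboxypeptidase of the papain family, averaged 340 ± 52.1 FPKM in relapse (SD, n = 4), 371 ± 35.8 in iCT (n = 3) and 312 ± 44.1 in vehicle mice (n = 5). Ctsd, the main aspartic protease of lysosomes, averaged 307 ± 32.9 FPKM in relapse, 331 ± 31.5 in iCT and 292 ± 34.2 in vehicle mice. The ranges of both genes overlapped in every group. Ctsa, which also shields beta-galactosidase and neuraminidase from degradation, averaged 131 ± 15.6 FPKM in relapse, 107 ± 12.2 in iCT and 110 ± 9.05 in vehicle mice. Ctsb, an endopeptidase that also trims dipeptides from carboxyl ends, stood at 95.6 ± 7.67 FPKM in relapse, 85.3 ± 17 in iCT and 109 ± 4 in vehicle mice. Ctsa and Ctsb could not be ordered in vehicle mice, where their ranges overlapped, while every relapse mouse had more Ctsa than any relapse mouse had Ctsb.

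The summed level of the 9 genes was 979 ± 127 FPKM in relapse (SD, range 869 to 1156), 1003 ± 77.1 in iCT (933 to 1085) and 971 ± 82.4 in vehicle mice (846 to 1046). These ranges overlapped throughout. Ctsd, Ctsz, Ctsa and Ctsb together held 89.4% ± 2.35 of that sum in relapse, 89.2% ± 2.33 in iCT and 84.6% ± 2.99 in vehicle mice. Scpep1 held 2.67% ± 0.335 of it in relapse, 0.561% ± 0.295 in iCT and 3.2% ± 0.305 in vehicle mice, and Lgmn held 0.14% ± 0.0765 in relapse, 1.55% ± 0.878 in iCT and 0.21% ± 0.0656 in vehicle mice. The genes that moved most were a small share of this sum.

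**Figure D1:**
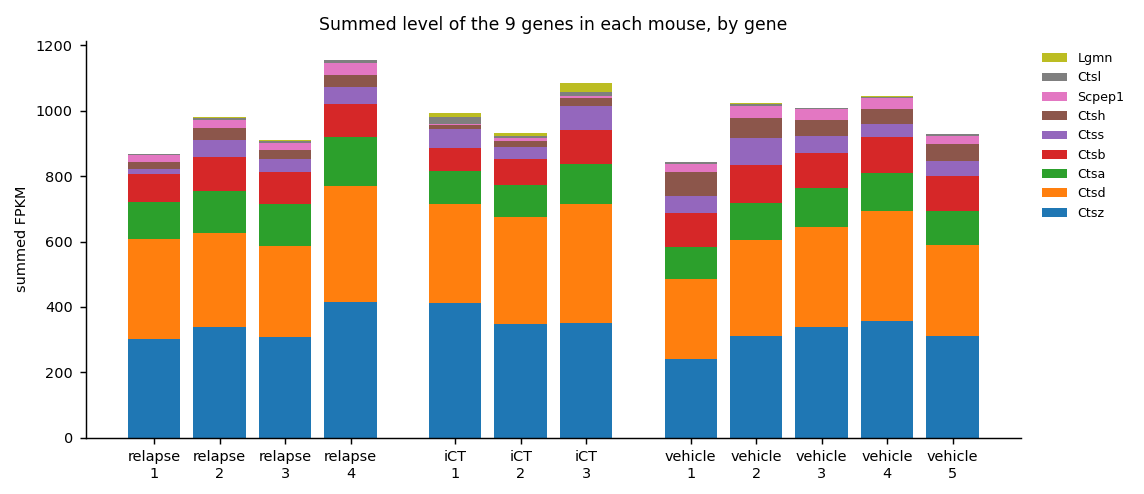
Stacked bars of the FPKM of each of the 9 genes in each of the 12 mice, grouped as relapse, iCT and vehicle. The sums run from 846 to 1156 FPKM, Ctsz and Ctsd form the bulk of every bar, and the Scpep1 and Ctsh segments are thin in the iCT bars.

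Below these 4 genes the order of levels differed between groups. In vehicle mice Ctsh (56.8 ± 11.5 FPKM) and Ctss (53.5 ± 16.8) overlapped, Scpep1 (31.2 ± 5.22) lay below both, and Ctsl (4.8 ± 1.84) and Lgmn (2.03 ± 0.643) overlapped at the bottom. In iCT mice Ctss came next at 55.7 ± 19.4 FPKM, Ctsh at 18.5 ± 6.22, Lgmn at 16 ± 10.3 and Ctsl at 13.5 ± 7.41 overlapped one another, and Scpep1 was last at 5.58 ± 2.74, where its highest value overlapped the lowest of Ctsl. In relapse mice Ctss (40.6 ± 16.6 FPKM), Ctsh (30.9 ± 9.7) and Scpep1 (26.3 ± 6.5) overlapped, followed by Ctsl (6.24 ± 1.93) and Lgmn (1.41 ± 0.84), which did not overlap.

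**Figure D2:**
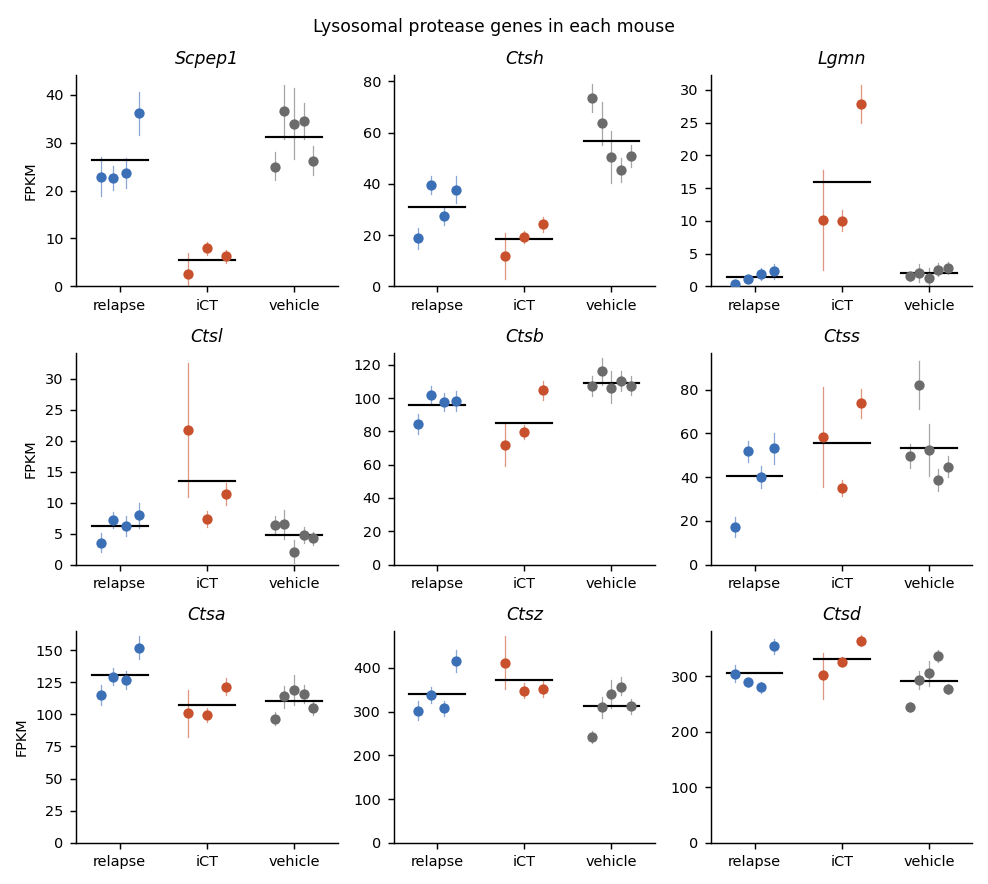
FPKM of each gene in each mouse (points), with the 95% interval given in the authors' tables (thin lines) and the group mean (black bars), for relapse, iCT and vehicle. Scpep1 and Ctsh are lowest and Lgmn and Ctsl highest on average in iCT, while Ctsd, Ctsz and Ctsa overlap across all 3 groups.

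The 9 genes are spread over 8 chromosomes (GRCm38). Scpep1 lies at chr11:88924020-88955442 on the minus strand, Lgmn at chr12:102394098-102439697 (minus), Ctsh at chr9:90054267-90076095 (plus) and Ctsl at chr13:64363214-64370306 (minus). Ctsd lies at chr7:142375916-142387870 (minus), Ctsb at chr14:63122462-63145923 (plus) and Ctss at chr3:95526786-95556405 (plus). Ctsa (chr2:164832872-164841032, plus) and Ctsz (chr2:174427494-174438992, minus) share chromosome 2.

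Promoter windows of 300 bases, from 250 before to 50 after a RefSeq start site (GRCm38.p6), were at hand for 7 of the 9 genes, in 9 windows. Letter patterns were searched on both strands, the E-box CACGTG, its longer form TCACGTGA, which is the core of the CLEAR element bound by the lysosomal regulators TFEB and TFE3, and the PU.1 box GAGGAAGT of a myeloid factor. The E-box lies inside the longer form, so every TCACGTGA match is also an E-box match. Shown are the windows of Scpep1, Lgmn and Ctsl, 3 of the 4 genes called in iCT (the call of Ctsl was lost in most alternatives), and of the 2 genes that hold the longer form, with the matches in capitals.
Scpep1, chr11:88955393-88955692, minus strand: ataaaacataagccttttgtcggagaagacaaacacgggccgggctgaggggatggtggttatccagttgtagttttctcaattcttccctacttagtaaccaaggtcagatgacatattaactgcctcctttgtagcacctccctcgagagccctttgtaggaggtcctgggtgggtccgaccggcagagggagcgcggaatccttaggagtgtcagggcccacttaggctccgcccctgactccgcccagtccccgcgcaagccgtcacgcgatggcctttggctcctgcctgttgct
Lgmn, second start site, chr12:102439043-102439342, minus strand: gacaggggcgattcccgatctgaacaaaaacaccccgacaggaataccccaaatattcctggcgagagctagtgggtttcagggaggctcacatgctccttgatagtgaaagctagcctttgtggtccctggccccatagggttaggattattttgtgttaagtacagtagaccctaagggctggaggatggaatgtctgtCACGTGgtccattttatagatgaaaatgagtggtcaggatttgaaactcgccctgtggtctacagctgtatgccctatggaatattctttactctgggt
Ctsl, chr13:64370471-64370770, minus strand: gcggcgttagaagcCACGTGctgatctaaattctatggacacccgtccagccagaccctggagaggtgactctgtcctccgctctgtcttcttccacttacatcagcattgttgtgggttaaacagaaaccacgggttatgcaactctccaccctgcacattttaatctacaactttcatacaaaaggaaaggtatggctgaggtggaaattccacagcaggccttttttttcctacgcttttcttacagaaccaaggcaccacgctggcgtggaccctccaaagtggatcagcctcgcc
Ctsd, chr7:142387778-142388077, minus strand: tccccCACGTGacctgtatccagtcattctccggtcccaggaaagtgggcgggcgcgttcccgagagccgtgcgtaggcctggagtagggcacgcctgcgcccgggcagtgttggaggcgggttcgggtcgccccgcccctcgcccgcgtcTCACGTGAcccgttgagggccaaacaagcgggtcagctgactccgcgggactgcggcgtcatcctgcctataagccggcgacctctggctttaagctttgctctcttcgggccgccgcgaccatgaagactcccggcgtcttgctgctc
Ctsa, second start site, chr2:164833523-164833822, plus strand: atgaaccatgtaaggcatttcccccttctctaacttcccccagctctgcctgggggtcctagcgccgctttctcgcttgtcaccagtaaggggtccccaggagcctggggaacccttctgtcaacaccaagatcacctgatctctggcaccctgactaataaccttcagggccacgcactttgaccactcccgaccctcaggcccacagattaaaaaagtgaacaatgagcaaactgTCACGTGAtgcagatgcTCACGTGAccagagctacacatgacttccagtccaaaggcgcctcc
The E-box stood in a single window of each of 4 genes, among 9 member windows, and in 7.15% of all 32851 windows of that length in the table. The longer form stood in a single window each of Ctsa and Ctsd, among the same 9 windows, against 0.97% of all windows. In Ctsa it begins at positions -13 and 5 from the start site, and in Ctsd at -99, with a further E-box at -245. Single E-boxes begin at -49 in the second Lgmn window and at -236 in Ctsl. The PU.1 box was found only in Ctss, at -2 and on the opposite strand, against 3.2% of all windows. The windows of Scpep1 and Ctsz and the first windows of Lgmn and Ctsa held none of these patterns. Ctsb and Ctsh had no entry. A match is a run of letters and shows no binding.

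At 3 days after chemotherapy the abundant Ctsz, Ctsd and Ctsa overlapped their vehicle range, while Scpep1 and Ctsh fell and Lgmn rose. Ctsl also passed the test as higher, but its call rested on single libraries. By limma 4 of the 9 genes were called, 2 higher and 2 lower in iCT, where 9.62% of all 11019 tested genes were called (3.31% higher and 6.31% lower). Their median change was 0.04, and that of all tested genes -0.08. The iCT and vehicle ranges did not overlap in 5 of the 9 genes (Scpep1, Ctsh, Lgmn, Ctsl and Ctsb), against 16.1% of all tested genes. As the 9 genes were chosen with earlier results of these data known, these counts are no independent test. In RNA from sorted populations, fewer cells of a type and less RNA per cell cannot be told apart.

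Scpep1, a retinoid-inducible serine carboxypeptidase of lysosomes, had 2.57, 7.92 and 6.25 FPKM in iCT mice 1 to 3, against 25, 36.5, 33.9, 34.5 and 26.2 FPKM in vehicle mice 1 to 5. Every iCT mouse lay far below every vehicle mouse. The log2 change was -2.38 (SE 0.27, limma adjusted p = 0.000392), a ratio of 0.192. The value of iCT mouse 1 rested on only 1.3 implied fragments, and without that mouse the change was -1.99 (adjusted p = 0.000378).

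Ctsh, an aminopeptidase that trims amino ends, had 11.8, 19.4 and 24.2 FPKM in iCT mice 1 to 3, against 73.5, 63.6, 50.4, 45.5 and 50.9 FPKM in vehicle mice 1 to 5. The groups did not overlap. Its log2 change was -1.60 (SE 0.26, adjusted p = 0.00402), and -1.33 (adjusted p = 0.0122) without iCT mouse 1, whose value rested on 7 implied fragments. The summed level of 10 monocyte markers, none of them at 0 throughout a group, moved with it, at 736 to 848 FPKM in iCT and 2875 to 3168 FPKM in vehicle mice. Of these markers 6 fell and 1 rose, where 6.31% of all tested genes were called lower and 3.31% higher. The part of the monocyte markers in the fall of Ctsh and Scpep1 was not tested.

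Lgmn had 10.1, 10 and 27.8 FPKM in iCT mice 1 to 3, against 1.51, 2.01, 1.31, 2.53 and 2.82 FPKM in vehicle mice 1 to 5. Mouse 3 was the highest of the iCT mice, and the groups did not overlap. The log2 change was 2.35 (SE 0.36, adjusted p = 0.00258), and 1.89 (adjusted p = 0.00778) without iCT mouse 3. Summed levels of 18 tissue macrophage markers were 192, 224 and 354 FPKM in iCT mice 1 to 3, against 158 to 210 FPKM in vehicle mice, where Marco and Vsig4 were at 0. Of 11 macrophage markers past the filter, 2 passed it through the iCT mice alone. Among the other 9 there were 6 that rose (5 without iCT mouse 3, 4 in a fit of iCT and vehicle alone) and 1 that fell. Of all tested genes, 3.31% were called higher and 6.31% lower. The part of the macrophage markers in the rise of Lgmn was not tested.

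Ctsl, an endopeptidase that also processes the invariant chain in some cells, had 21.7, 7.4 and 11.4 FPKM in iCT mice 1 to 3, against 6.42, 6.54, 2.06, 4.78 and 4.22 FPKM in vehicle mice 1 to 5. All iCT values lay above all vehicle values, mouse 2 only just. The log2 change was 1.27 (SE 0.36, adjusted p = 0.045), and the highest value rested on 16 implied fragments. Without iCT mouse 1 the change was 0.88 (adjusted p = 0.156), and without iCT mouse 3 or any of vehicle mice 2 to 5 and relapse mice 2 to 4 the adjusted p was 0.0506 to 0.0857. Summed osteoclast markers were 1009, 267 and 351 FPKM in iCT mice 1 to 3, against 32 to 86.3 FPKM in vehicle mice, in which Calcr, Dcstamp and Oscar were at 0. Of 8 osteoclast markers past the filter, 3 passed it through the iCT mice alone. Among the other 5 there were 3 that rose (4 without iCT mouse 2), where 3.31% of all tested genes were called higher. The part of the osteoclast markers in the Ctsl values was not tested.

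**Figure D3:**
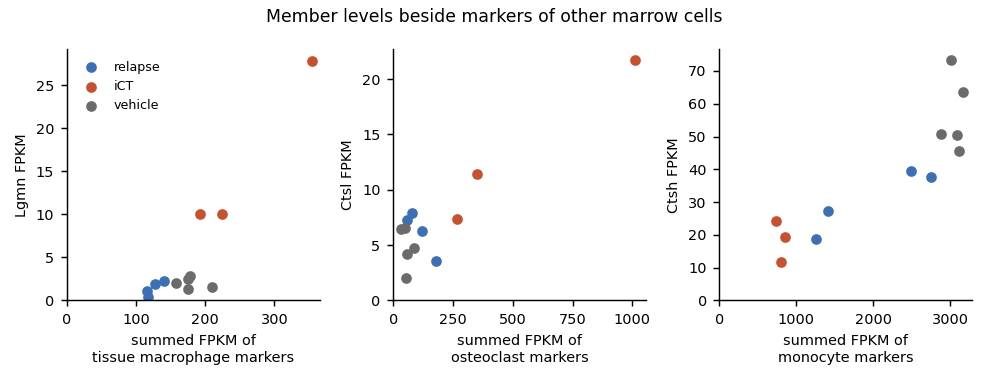
FPKM of Lgmn, Ctsl and Ctsh in each mouse (vertical axes) against the summed FPKM of tissue macrophage, osteoclast and monocyte markers in the same mouse (horizontal axes), coloured by group. The iCT mouse with the most Lgmn also has the highest macrophage sum (354), the one with the most Ctsl the highest osteoclast sum (1009), and the iCT mice have the lowest monocyte sums (736 to 848). Vehicle mouse 1 has a macrophage sum of 210 with 1.51 Lgmn, and iCT mouse 1 a lower sum of 192 with 10.1 Lgmn. In the other groups the osteoclast sums do not follow Ctsl. Relapse mouse 1 has the highest sum of its group (180) and the least Ctsl (3.54), and vehicle mouse 1 the lowest sum (32) with 6.42 Ctsl.

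The remaining 5 genes were not called. Ctsb had 72, 79.5 and 105 FPKM in iCT mice 1 to 3, against 107, 116, 106, 110 and 107 FPKM in vehicle mice 1 to 5. The groups touched without overlapping, and the log2 change of -0.37 (SE 0.11) missed the threshold (adjusted p = 0.0595). It passed only when iCT mouse 3 was left out (-0.52, adjusted p = 0.0116). Ctss, an elastinolytic cathepsin that cleaves the invariant chain in antigen-presenting cells, ranged from 35.1 to 73.7 FPKM in iCT and from 38.5 to 82 FPKM in vehicle mice (log2 change 0.04, SE 0.35, adjusted p = 0.949). Its spread within each group was wide, so that a change of moderate size could not have been seen. For Ctsd and Ctsz the log2 changes were 0.18 (SE 0.12, adjusted p = 0.291) and 0.26 (SE 0.14, adjusted p = 0.227). The change of Ctsa was -0.04 (SE 0.11, adjusted p = 0.825), which became 0.00 after median-of-ratios scaling.

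The members moved apart within the same libraries. The log2 ratio of each gene to Ctsb was taken with 1 FPKM added to both. Library scaling cancels in it apart from the added 1, which matters most for low genes such as Lgmn. The 8 ratios were compared between iCT and vehicle with exact two-sided permutation tests, for which 0.0357 is the smallest p that 3 against 5 mice allow. The ratio of Scpep1 averaged -3.80 ± 0.59 in iCT and -1.79 ± 0.21 in vehicle mice, a difference of -2.01 (exact permutation p = 0.0357). The ratio of Lgmn averaged -2.49 ± 0.54 in iCT and -5.21 ± 0.30 in vehicle mice, a difference of 2.72 (exact permutation p = 0.0357). The differences were -1.23 for Ctsh, 1.64 for Ctsl, 0.63 for Ctsz, 0.55 for Ctsd and 0.33 for Ctsa, each with the same exact p, and 0.41 for Ctss (exact permutation p = 0.25). A ratio shows unequal change, not which of its genes changed.

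**Figure D4:**
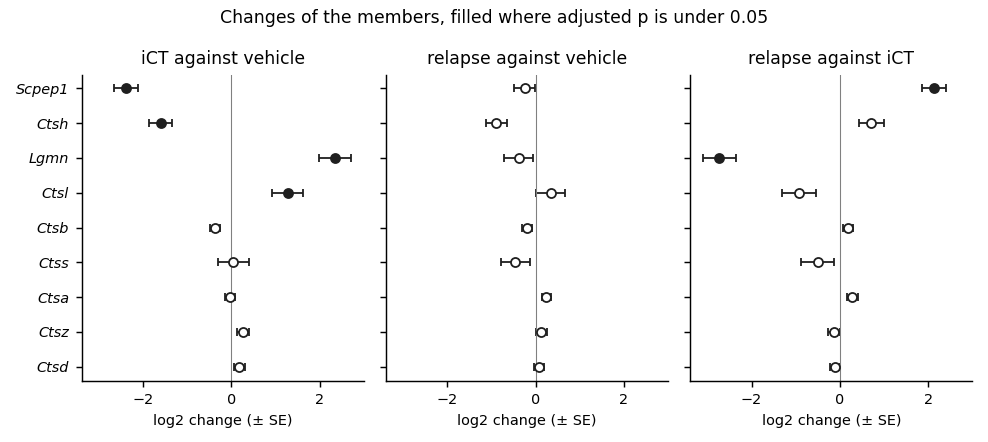
Change in log2(FPKM + 1) with its SE for each gene in the 3 comparisons; filled points passed the limma threshold. In iCT against vehicle Scpep1 (-2.38) and Ctsh (-1.60) lie left of 0 and Lgmn (2.35) and Ctsl (1.27) right of it, no point is filled in relapse against vehicle, and Scpep1 (2.13) and Lgmn (-2.73) are filled in relapse against iCT.

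At 10 days after chemotherapy none of the 9 genes differed from vehicle by the test (0 of 9 by limma), and neither did any other gene (0% of 11019 called; 1604 had an unadjusted p under 0.05). Scpep1 had 22.9, 22.6, 23.7 and 36.1 FPKM in relapse mice 1 to 4, which overlapped the vehicle range of 25 to 36.5 FPKM (log2 change -0.25, SE 0.24, adjusted p = 0.696). Lgmn had 0.374, 1.13, 1.88 and 2.27 FPKM in relapse mice, against 1.31 to 2.82 FPKM in vehicle mice (-0.38, SE 0.33, adjusted p = 0.644). Ctsl overlapped as well (0.34, SE 0.33, adjusted p = 0.689).

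Ctsh was the member farthest from vehicle at this time. It had 18.7, 39.5, 27.4 and 37.8 FPKM in relapse mice 1 to 4, all below the lowest vehicle mouse at 45.5 FPKM. Its log2 change of -0.89 (SE 0.24) had an adjusted p of 0.179 by limma, 0.0404 in a fit of these 2 groups alone, in which 5.4% of all genes were called, and 0.0292 with array weights, by which 971 genes were called. Monocyte marker sums were 1257, 2496, 1408 and 2757 FPKM in relapse mice 1 to 4, and relapse mice 2 and 4, with the higher sums, were also those with more Ctsh. The other groups did not show this. The iCT mouse with the most Ctsh, mouse 3 (24.2 FPKM), had the lowest sum of its group (736). Vehicle mouse 1, with the most Ctsh (73.5 FPKM), had a sum of 3012, within a range of 2875 to 3168. The part of these markers in the Ctsh values was not tested. Ctsb ranged from 84.5 to 102 FPKM in relapse and from 106 to 116 FPKM in vehicle mice, also without overlap (-0.19, SE 0.11, adjusted p = 0.427). These were 2 of 9 genes without overlap, against 13.7% of all genes. Ctsa, Ctsd, Ctsz and Ctss changed by 0.24, 0.08, 0.13 and -0.46 on the log2 scale (adjusted p 0.308 to 0.803).

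Between the times after chemotherapy, Scpep1 was higher and Lgmn lower in relapse than in iCT. These were the 2 called genes of 9, where 9.72% of all genes were called (6.62% higher and 3.1% lower), and the 2 without overlap of the groups, against 23.3% of all genes. The log2 change of Scpep1 was 2.13 (SE 0.28, adjusted p = 0.00157), with 26.3 ± 6.5 FPKM in relapse and 5.58 ± 2.74 in iCT mice. Lgmn had a change of -2.73 (SE 0.37, adjusted p = 0.00183), with 1.41 ± 0.84 FPKM in relapse and 16 ± 10.3 in iCT mice. Summed macrophage markers moved with Lgmn, at 116 to 140 FPKM in relapse, where Marco and Timd4 were at 0, and 192 to 354 FPKM in iCT mice, and their part was not tested. The iCT libraries are shared by this comparison and that with vehicle. Ctsh (0.71, SE 0.28, adjusted p = 0.119) and Ctsl (-0.92, SE 0.38, adjusted p = 0.13) did not pass. Neither did Ctsa (0.28), Ctsb (0.18), Ctsd (-0.11), Ctsz (-0.13) and Ctss (-0.50), with adjusted p from 0.134 to 0.56, although Ctsb passed without iCT mouse 3 (0.33, adjusted p = 0.0468). The median change of the members was -0.11, and that of all tested genes 0.16, or 0.02 after quantile normalization and 0.06 with median-of-ratios scaling.

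Genes whose pattern over the 12 libraries was most like that of a member were found by the root-mean-square difference of log2 values, each centred on its mean. Scpep1 was nearest to Tifa, an adaptor of NF-kappaB signalling (difference 0.22), and to the surface protein gene Ly6k (0.24), where its own spread was 1.05. Lgmn was nearest to the complement gene C1qb (0.36) and the ectoenzyme gene Cd38 (0.45), with a spread of 1.2. C1qb is itself one of the tissue macrophage markers summed above. Cd38 reached at most 0.61 FPKM in relapse and 0.791 in vehicle mice, against 4.88 to 7.74 in iCT mice. It passed the filter through the iCT mice alone, so its place here rests on that group. Ctsh was nearest to Smpdl3a, a phosphodiesterase gene (0.25), and S100a10, an annexin partner (0.32), with a spread of 0.74. Ctsl was nearest to the proteoglycan gene Bgn (0.26) and to Adck3, a kinase-like gene of coenzyme Q synthesis (0.32), with a spread of 0.70. The nearest genes of the other members lay at 0.06 to 0.28, beside small spreads of 0.15 to 0.53.

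The remaining cathepsins moved in both directions. Of 16 listed, 6 passed the filter on low values, of which 1 rose and 2 fell in iCT against vehicle. Of all tested genes, 3.31% were called higher there and 6.31% lower. Ctsk, the collagen-degrading cathepsin of osteoclasts, had 277, 75 and 61.1 FPKM in iCT mice, against 0 to 2.47 FPKM in vehicle mice, and is itself an osteoclast marker (log2 change 6.06, SE 0.96, adjusted p = 0.00341). Napsa, an aspartic protease close to cathepsin D, fell to 242 ± 15.3 FPKM in iCT, against 417 ± 16.3 in vehicle mice (-0.79, adjusted p = 0.00113), and stood at 445 ± 70.3 in relapse mice (0.87 against iCT, adjusted p = 0.00114). Ctse, an endosomal aspartic protease, fell by 1.31 (adjusted p = 0.0277), with adjusted p = 0.0506 to 0.0908 without any of vehicle mice 2 to 5 or iCT mouse 1. Ctsc, which activates granule proteases, and Ctsg, a neutrophil granule protease, had log2 changes of -0.15 and 0.28 (adjusted p = 0.713 and 0.123). In relapse against iCT Ctsg was lower (-0.49, adjusted p = 0.0259), a call lost without relapse mouse 1, 3 or 4 (adjusted p = 0.052 to 0.0698). Ctsk was also lower there (-4.85, adjusted p = 0.0133, but 0.0677 in a fit restricted to these groups and 0.0533 with array weights), where relapse mouse 1 had 33.1 FPKM and the other relapse mice 0.152 to 3.27.

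Most of the other lysosomal peptidases fell in iCT. Of 6 tested, 4 fell and 0 rose (median -0.95), where 6.31% of all tested genes were called lower and 3.31% higher. Prcp, a carboxypeptidase that cuts after proline, changed by -0.96 (adjusted p = 0.00109), Cpq, carboxypeptidase Q, by -0.93 (adjusted p = 0.00234), Ggh, which shortens folate polyglutamates, by -1.24 (adjusted p = 0.0014) and Dpp7, a dipeptidyl peptidase, by -1.27 (adjusted p = 0.016, and 0.0675 in a fit of only these groups). The Dpp7 value of iCT mouse 1, 3.31 FPKM, rested on 2.0 implied fragments, and the change ran from -1.58 to -0.79 over the alternatives. The sums of monocyte markers given above for Ctsh, 736 to 848 FPKM in iCT and 2875 to 3168 FPKM in vehicle mice, fell with these peptidases and with the hydrolases below, and their part was not tested. All 4 were higher in relapse than in iCT, with log2 changes from 0.72 for Ggh to 1.13 for Dpp7. Of all tested genes, 6.62% were called higher there. In that comparison only 2 of the 6 passed without relapse mouse 2 or without relapse mouse 4. Those fits called 529 and 536 of all genes, against 1071 with all libraries. Dpp7 lost its call without any 1 relapse mouse (adjusted p = 0.0568 to 0.0732), and Ggh without iCT mouse 1 or 3 or relapse mouse 2 or 4 (0.0538 to 0.0742).

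Of 36 hydrolases and their activators, which digest glycans and lipids, 10 fell and 2 rose in iCT (median -0.28). Of all tested genes, 6.31% were called lower there and 3.31% higher. Gm2a, the activator protein for ganglioside breakdown, had 35.1 ± 4.63 FPKM in iCT and 121 ± 13.2 in vehicle mice (-1.76, SE 0.12, adjusted p = 3.04e-05). Hexa, the hexosaminidase subunit that works with it, changed by -1.06 (adjusted p = 0.00155), Asah1, acid ceramidase, by -0.73 (adjusted p = 0.00153) and Npc2, a cholesterol carrier, by -0.62 (adjusted p = 0.00301). Gusb, which breaks down glycosaminoglycans, was higher (0.36, adjusted p = 0.0355) and was named after its value was seen. The count of lower genes was 5 without vehicle mouse 3 and 6 without vehicle mouse 4, vehicle mouse 5 or iCT mouse 1, and that of higher genes was 0 or 1 without any single library other than iCT mouse 2. The fits without vehicle mouse 3, 4 or 5 or iCT mouse 1 called 569 to 727 of all genes, against 1060 with all libraries. In relapse against iCT 14 of 36 were higher and 0 lower (median 0.39), or 8 without relapse mouse 1 and 7 without relapse mouse 2 or mouse 4. Of all genes, 529 to 593 were called there without relapse mouse 1, 2 or 4, against 1071 with all libraries. Those 1071 were 6.62% of all tested genes called higher and 3.1% called lower in relapse against iCT. Gm2a changed by 1.79 there (adjusted p = 4.21e-05) and Man2b1, a mannosidase, by 0.85 (adjusted p = 0.00333).

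Of 26 lysosomal membrane proteins 1 rose and 3 fell in iCT (median -0.11), where 9.62% of all tested genes were called. Lamp1, a major lysosomal membrane glycoprotein, changed by -0.46 (adjusted p = 0.00402) and the cystine exporter gene Ctns by -1.22 (adjusted p = 0.0205, and 0.0765 in a fit of only these groups). The Ctns value of iCT mouse 1, 2.57 FPKM, rested on 3.0 implied fragments, and the change ran from -1.59 to -0.73 over the alternatives. Ostm1, a partner of a chloride transporter, changed by -0.46 (adjusted p = 0.0335, and 0.052 to 0.0871 without any of vehicle mice 2 to 5, iCT mouse 1 or 3 and relapse mouse 2 or 3). Laptm4b, a transmembrane protein gene, rose by 0.80 (adjusted p = 0.0207, and 0.0539 without iCT mouse 3). Without iCT mouse 2 the count of lower membrane genes was 6, in a fit that called 2722 of all genes, against 1060 with all libraries. In relapse against iCT 3 were higher, Lamp1, Ctns and Ostm1 (1 without relapse mouse 1 and 6 without iCT mouse 3). Of all genes, 1071 (9.72%) were called there, 593 without relapse mouse 1 and 1855 without iCT mouse 3. The call of Ctns there was lost without any 1 relapse mouse (adjusted p = 0.0561 to 0.0771).

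Of 18 subunits of the vacuolar ATPase, 17 passed the filter on low values without resting on the iCT mice alone, and none of these was called in iCT (0 of 17 by limma; 6 of them had an unadjusted p under 0.05). Without iCT mouse 2, 5 of them were lower and 1 was higher. That fit called 2722 of all genes, against 1060 (9.62%) with all libraries, which applies to each count without iCT mouse 2 below. Atp6v0d2, an osteoclast subunit and one of the osteoclast markers, had 24, 4.06 and 1.99 FPKM in iCT mice, against 0 to 0.952 FPKM in vehicle mice. It passed the filter through the 3 iCT mice alone, so its values are given without a test. Of 12 genes for sorting enzymes to lysosomes only M6pr, a mannose 6-phosphate receptor, was called (-0.37, adjusted p = 0.0238, and 0.0521 to 0.0666 without vehicle mouse 3, iCT mouse 1 or iCT mouse 3), with 4 lower and 1 higher without iCT mouse 2. Of 15 tested regulators, among them Tfe3 (0.44, adjusted p = 0.117), the mTORC1 scaffold gene Rptor (-0.61, adjusted p = 0.235) and Zkscan3, a repressor of lysosomal genes (-0.26, adjusted p = 0.306), none was called in either comparison with iCT (0 by limma; 2 had an unadjusted p under 0.05 in iCT against vehicle and 3 in relapse against iCT). With iCT mouse 2 left out 1 regulator was higher and 1 lower in iCT, and with iCT mouse 3 left out 3 were higher in relapse than in iCT. The latter fit called 1855 of all genes, against 1071 with all libraries.

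Several inhibitors of cathepsins rose in iCT. Of 10 tested, 6 rose and 0 fell (median 0.84), where 3.31% of all tested genes were called higher and 6.31% lower. Stfa2, a stefin, had 354, 519 and 637 FPKM in iCT mice, against 23.1 to 42.4 FPKM in vehicle mice (3.90, SE 0.61, adjusted p = 0.00316). Stfa2l1 rose by 3.18 (adjusted p = 0.00316) and Stfa1 by 2.10 (adjusted p = 0.0236, and 0.0533 without vehicle mouse 3), and reads of these stefin A genes are uncertain because the copies are near identical. Serpinb1a, an inhibitor of granule proteases, rose by 0.47 (adjusted p = 0.0281, and 0.0535 to 0.0572 without vehicle mouse 2, 3 or 4). Only 3 rose without vehicle mouse 2 or mouse 4 and 2 without vehicle mouse 3, in fits that called 618 to 736 of all genes, against 1060 with all libraries. In relapse against iCT 5 were lower and 1 higher, and 0 were higher without any 1 library other than iCT mouse 2 or 3. Of all tested genes, 3.1% were called lower there and 6.62% higher. Summed neutrophil markers, of cells that express stefins, were 6768 to 15886 FPKM in relapse, 15288 to 19531 in iCT and 4086 to 14912 in vehicle mice, and their part was not tested.

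Among 10 tested genes of antigen presentation and endosomal Toll-like receptors, which cathepsins S, L and B serve, 3 fell and 0 rose in iCT (median 0.00). Of all tested genes, 6.31% were called lower there and 3.31% higher. H2-DMa, which loads peptides on MHC class II, changed by -0.78 (adjusted p = 0.00226) and by 1.09 in relapse against iCT (adjusted p = 0.000596). Its partner H2-DMb1 changed by -1.24 (adjusted p = 0.029, and 0.0509 to 0.0577 without any 1 vehicle mouse). The H2-DMb1 value of iCT mouse 1, 10 FPKM, rested on 3.2 implied fragments, and the change ran from -1.56 to -0.65 over the alternatives. Tlr9, a DNA sensor cut by cathepsins, had 0, 0.471 and 0.739 FPKM in iCT mice, against 1.33 to 4.23 FPKM in vehicle mice (-1.27, adjusted p = 0.0337, and 0.0577 to 0.108 without vehicle mouse 2, 4 or 5 or iCT mouse 1). Only 1 gene of the list fell without vehicle mouse 2, 4 or 5, in fits that called 569 to 736 of all genes, against 1060 with all libraries. H2-Aa, a class II chain, had 33.4 ± 8.76 FPKM in iCT and 19.6 ± 10.3 in vehicle mice (0.91, adjusted p = 0.336).

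**Figure D5:**
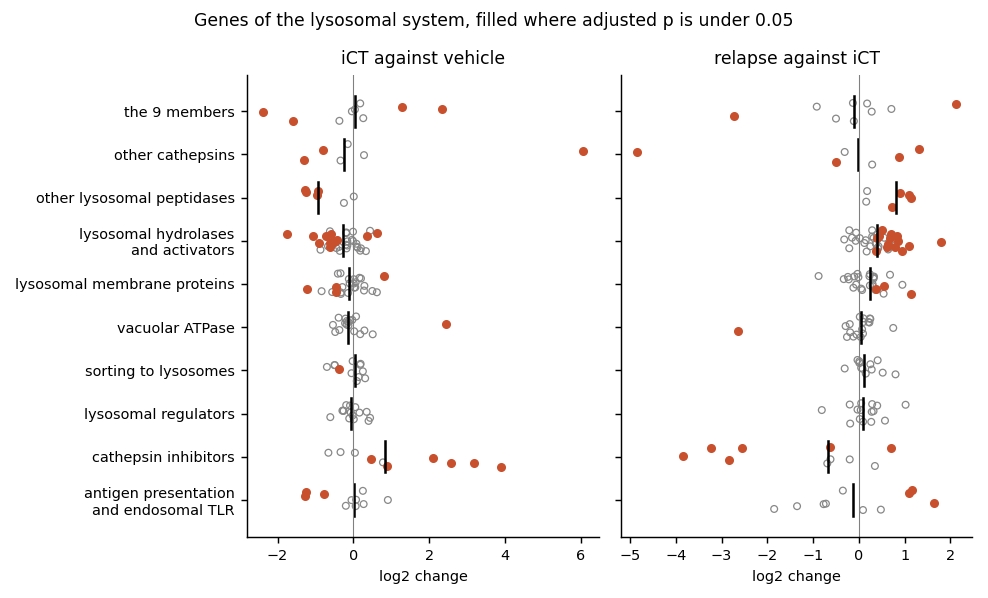
Change in log2(FPKM + 1) of each tested gene (points, filled where the limma adjusted p is under 0.05) in 10 lists, with the list median (black bars), for iCT against vehicle and relapse against iCT. In iCT against vehicle the peptidases centre at -0.95 and the inhibitors at 0.84, and in relapse against iCT the hydrolases centre at 0.39. The filled point of the vacuolar ATPase is Atp6v0d2, which passed the filter through the iCT mice alone.

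Some exons of the members overlap other genes, and the strandedness of the libraries is not given in the sources used here, so reads there could belong to either gene. Ctsa overlaps Neurl2 and Pltp on the opposite strand. Neurl2 had 0.492 ± 0.636 FPKM in iCT and 3.06 ± 0.324 in vehicle mice, a log2 change of -1.52 (adjusted p = 0.00496). Pltp had 9.71 ± 4.63 FPKM in iCT and 2.51 ± 1.14 in vehicle mice (1.60, adjusted p = 0.0141), and both lay far below Ctsa. Scpep1 overlaps its antisense gene Scpep1os, which stood at 1.43 ± 0.208 FPKM in relapse, 1.04 ± 1.07 in iCT and 1.49 ± 0.658 in vehicle mice and was not called in any comparison. Ctsb overlaps Fdft1 (8.4 ± 3.49 FPKM in iCT and 10.4 ± 1.44 in vehicle mice) and Ctsz overlaps Nelfcd (24.7 ± 0.313 FPKM in iCT and 28 ± 5.44 in vehicle mice), and neither was called. Ctsl overlaps an antisense gene and a processed pseudogene, and Ctsd another coding gene on its own strand. The gene tables hold no entry under the annotated names of these overlapping genes, so no values can be given.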

How the data were processed

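RNA-seq libraries of GFP+ MLL-AF9 leukaemia cells from 12 mice (relapse 4, iCT 3, vehicle 5) were analysed from the deposited gene tables. The authors used STAR and Cufflinks to make the FPKM values, according to the submitters' processing notes (versions not stated). Per the file headers, each FPKM value has a 95% interval, and dividing 2 times the FPKM by the interval's half-width and squaring gave the fragments implied behind a value. Low values came out as whole fragments within 0.02 for only 44.6% to 47.1% of genes per library, so no count-based test was run. The notes name mm9, but 99.4% of 23030 compared loci overlap the GRCm38 gene of the same name, so coordinates are given as GRCm38. The tables hold 24346 symbols, 2 entries with failed estimates were left out, and 0 pairs of libraries were identical.

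Tests used limma 3.58.1 on log2(FPKM + 1) (R 4.3.3, statmod 1.5.0), with group as the only term, all 12 libraries, a variance trend and genes reaching 1 FPKM in 3 or more libraries. Fold changes on this scale understate those of low genes. P-values measure the spread between these mice. The fit was tested on simulated data. Alternatives were other pseudocounts (0.1 and 0.5), other filters, scalings, weights and variance models, fits restricted to the compared groups, a replicate block, and leaving out single libraries, 23 settings in all. Mouse numbers did not pair the libraries.

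Named genes were the 9 members, Ctsk, Ctsc and Ctsg, up to 4 genes per list with the smallest p in iCT against vehicle and 2 in relapse against iCT, and the 2 genes most like each member. The members and lists were chosen with earlier results of these data known. Promoter windows are from RefSeq (GRCm38.p6), gene positions from the loci in the deposited gene tables, and strands and exon overlaps from GENCODE M21. A gene of the hydrolase list is not reported here by name.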

Additional observations from a re-analysis of the deposited data

Results flagged for a closer look

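Scpep1 in relapse mouse 4, at 36.1 FPKM, stood apart from the other relapse mice at 22.6 to 23.7 FPKM, with a gap of 0.92 of the group's range. It was the only such value among 18 groups of 4 or 5 mice checked, and chance alone gives about 1 in 20. The changes of Scpep1 (2.13) and Lgmn (-2.73) on the log2 scale in relapse against iCT are listed because the responses of these genes at 10 and 3 days after chemotherapy differed by limma's test of that difference, in which the vehicle mice cancel.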

How the results depend on the processing

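The calls of Scpep1 and Lgmn in both comparisons with iCT and of Ctsh in iCT against vehicle held in all 23 alternatives, and that of Ctsl in 9 of 23. In iCT against vehicle 1060 genes were called, but 457 with array weights, 341 in a fit of only these groups, 197 with a replicate block, and 569 to 2722 with 1 library left out. In relapse against vehicle 0 were called, but 1 with no filter, 971 with array weights, 11 with precision weights, 595 in a fit of only these groups, and 0 to 5 with 1 library left out. In relapse against iCT 1071 were called, but 603 with array weights, 236 in a fit of only these groups, 372 with a replicate block, and 529 to 1855 with 1 library left out. Same-numbered mice did not deviate together (10 pairs, r -0.091 to 0.099, 0 over 0.1), so the block shares only a number. In iCT against vehicle the sign turned for Ctsa with median-of-ratios scaling (0.00) and array weights (0.04) and for Ctss with the block (-0.00). With 1 library left out, Ctsa ran from -0.13 to 0.01, Ctss from -0.19 to 0.34, Ctsc from -0.28 to 0.00 and, in relapse against iCT, Laptm4b from -0.23 to 0.04. None of these was called, and the causes were not tested. With 1 mouse left out, 0 of 8 ratios to Ctsb passed, since fewer mice cannot reach the threshold. Of 60 calls of other named genes 31 held in every alternative in which the gene was tested. Those of Cd38 are among the 31, although it was tested in only 19 of the 23 settings. The 60 include the calls of Cd38 and Atp6v0d2, which passed the filter through the iCT mice alone. Among the members the shallow iCT mouse 1 limits Scpep1, Ctsh, Lgmn and Ctsl most, and Dpp7, Ctns and H2-DMb1 also rested on few fragments there.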
